A study of Mus musculus with 2 samples.

Results

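Laminins, nidogens and perlecan are the non-collagen core of basement membranes. The 9 genes described here were taken by name: the laminin alpha chain genes Lama2, Lama4 and Lama5, the beta chain genes Lamb1 and Lamb2, the gamma chain gene Lamc1, the nidogen genes Nid1 and Nid2, and the perlecan gene Hspg2. All 9 were found among the 35275 Ensembl gene identifiers of the table. They were read in 2 libraries of polyadenylated RNA from mouse MSPC, the mesenchymal stem/progenitor cells of bone marrow, which can give rise to bone, cartilage and fat. One library came from mice carrying the Ptpn11E76K/+ genotype and the other from Ptpn11+/+ mice, with 1 library each. Both genotypes also carried a Nestin-Cre transgene on the C57BL/6 strain, in which the Nestin promoter drives Cre. That promoter is active in neural cells too. Ptpn11 encodes the phosphatase SHP2, and the E76K change makes it more active. For ages and the number of animals behind each library, no value is given in the labels. The comparison asks how RNA levels in sorted MSPC differ when 1 Ptpn11 allele carries that change.

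A laminin is a cross-shaped trimer of 1 alpha, 1 beta and 1 gamma chain that is assembled inside the cell and secreted. The alpha chain carries most of the sites for integrins and dystroglycan on the cell surface, so it sets which receptors a laminin binds. Nidogens bridge the gamma1 chain to collagen IV and perlecan, and perlecan is a large proteoglycan whose heparan sulfate chains hold growth factors. In bone marrow these proteins surround vessels and occur in the stroma near blood-forming cells.

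The Ptpn11E76K/+ library held 18010963 counts and the Ptpn11+/+ library 22328659. Ptpn11 had 5039 counts in the Ptpn11E76K/+ library and 5958 in the Ptpn11+/+ library, and a count per gene does not tell the alleles apart. The cells had been sorted for CD140 and Sca-1 and against CD45, Ter-119 and CD31. Pdgfra and Pdgfrb (CD140) had 1792 and 3721 counts in the Ptpn11E76K/+ library, against 2073 and 6075 in the Ptpn11+/+ library. Ly6a (Sca-1), Ptprc (CD45) and Pecam1 (CD31) had 612, 12 and 2 counts in the Ptpn11E76K/+ library, against 2177, 1 and 5 in the Ptpn11+/+ library. After scaling, the sort marker gene Ly6a was 2.67-fold lower in the Ptpn11E76K/+ library (2.44 to 2.93). Nes, the nestin gene, whose promoter drives the Cre, had 10785 counts in the Ptpn11E76K/+ library and 5192 in the Ptpn11+/+ library, 2.76-fold higher (2.67 to 2.86). Their part in the results below was not tested. With 1 library per genotype there is no estimate of the spread between animals, so no difference below has a replicate check and no test was run. Intervals are 95% exact intervals for counting error only. In bulk RNA, fewer cells of a type and less RNA per cell cannot be told apart.

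Of the laminin alpha chains, Lama5 was called higher and Lama2 lower in the Ptpn11E76K/+ library, and Lama4 was not called. Lama5, whose product is the alpha chain of laminin-511 and laminin-521, had 5066 counts in the Ptpn11E76K/+ library and 214 in the Ptpn11+/+ library. After scaling of the library totals it was 31.5-fold higher in the Ptpn11E76K/+ library (27.5 to 36.3). It ranked 57 from the highest among the 13142 genes that reached 20 counts in sum. Lama2, the alpha chain of the muscle and nerve laminins, was lower, with 291 counts in the Ptpn11E76K/+ library and 1296 in the Ptpn11+/+ library. It was 3.35-fold lower in the Ptpn11E76K/+ library (2.95 to 3.82). Lama4, the alpha chain of the vessel laminin-411, had 431 counts in the Ptpn11E76K/+ library and 310 in the Ptpn11+/+ library. Its ratio of 1.85 (1.59 to 2.15) reached across the 2-fold mark.

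Of the beta chains, 1 was called. Lamb1, which pairs with gamma1 in laminin-111, laminin-411 and laminin-511, had 4005 counts in the Ptpn11E76K/+ library and 2151 in the Ptpn11+/+ library. It was 2.48-fold higher in the Ptpn11E76K/+ library (2.35 to 2.61). Lamb2, the beta chain of neuromuscular and kidney basement membranes, had 9233 and 17155 counts in the Ptpn11E76K/+ and Ptpn11+/+ libraries. It was 1.40-fold lower in the Ptpn11E76K/+ library (1.36 to 1.43), short of 2-fold. Lamc1, the gamma chain that nearly all of these trimers share, had 6827 counts in the Ptpn11E76K/+ library and 5772 in the Ptpn11+/+ library, a ratio of 1.57 (1.52 to 1.63).

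Of the nidogens, Nid1 was called and Nid2 was not. Nid1 had 7830 counts in the Ptpn11E76K/+ library and 22795 in the Ptpn11+/+ library, and was 2.19-fold lower in the Ptpn11E76K/+ library (2.13 to 2.25). With the trends of the ratio over transcript length and GC content removed, its log2 ratio was -0.98, inside the 2-fold mark. Nid2, its paralogue with the same partners, had 3617 counts in the Ptpn11E76K/+ library and 3203 in the Ptpn11+/+ library, a ratio of 1.502 (1.43 to 1.58). Nid2 overlaps Rtraf on the other strand over 437 bases of annotated exon, and Rtraf had 1597 counts in the Ptpn11E76K/+ library and 1725 in the Ptpn11+/+ library. With no strand setting stated for the counting, reads of the pair may be shared. Hspg2 was the most counted of the 9 genes, with 36573 counts in the Ptpn11E76K/+ library and 68958 in the Ptpn11+/+ library. It was 1.42-fold lower in the Ptpn11E76K/+ library (1.40 to 1.44), short of 2-fold.

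**Figure D1:**
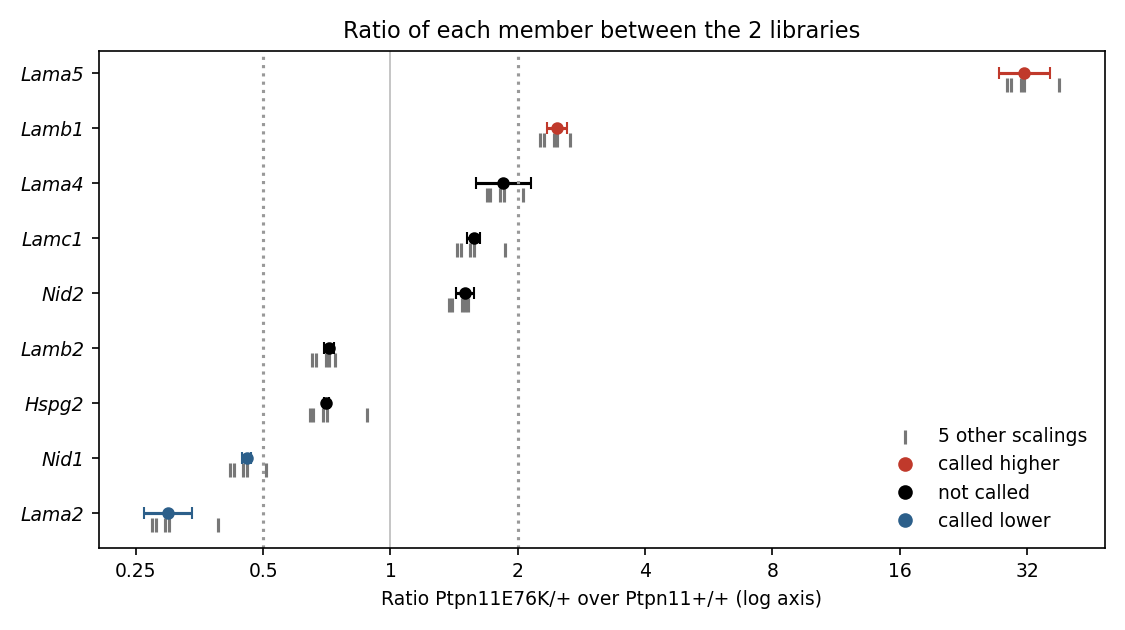
Ratio of the Ptpn11E76K/+ library over the Ptpn11+/+ library for each of the 9 genes on a log axis, with 95% counting intervals and, as grey ticks, the ratio under 5 other scalings. Dotted lines mark 2-fold, and point colours, keyed in the legend, show genes called higher, not called and called lower; Lama5 stands at 31.5 and Lama2 at 0.299, and Nid1 lies near the lower 2-fold line.

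Calls required the entire interval of a gene to lie beyond 2-fold. By this rule 4 of the 9 genes were called, against 15.3% of all 13142 measured genes. Lama5 and Lamb1 were called higher (6.98% of measured genes were), and Lama2 and Nid1 lower (8.29% were). Of all calls, 45.7% were higher, and 35.3% were with totals computed without the most abundant genes. All 9 genes passed the minimum of 20 counts in each library on its own. With the whole interval beyond 1.5-fold, Lama4 and Lamc1 were also called higher, which made 6 of 9, against 31.3% of measured genes. Beyond 4-fold only Lama5 was called, against 3.71%. The median log2 ratio was 0.59 over the 9 genes and 0.006 over all measured genes, but 5 of the 9 ratios were above 1 and 4 below, so the median describes no common direction. Among the 7796 genes with at least 741 counts, the total of the least counted of the 9, 12.5% were called. Among the 3119 genes with a transcript of at least 4.876 kb, the shortest of the 9, 16.1% were called and the median log2 ratio was -0.22. The 4-fold mark and both minimums were chosen after the values were seen.

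**Figure D2:**
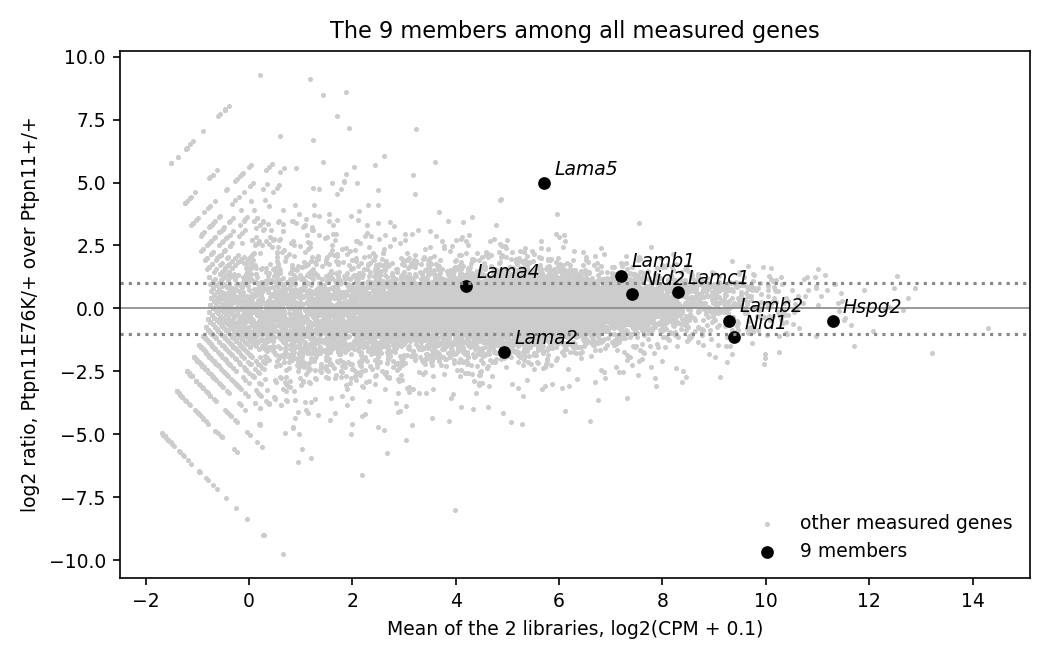
The log2 ratio of the Ptpn11E76K/+ over the Ptpn11+/+ library against the mean log2 level, for all measured genes (grey) and the 9 genes (black, named). Lama5, at a log2 ratio of 4.97, lies above the cloud of genes of like level, and Hspg2 is the most abundant of the 9.

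Levels of different genes were compared per length, in CPM (counts-per-million of the scaled library total) per kilobase of the longest annotated transcript. In the Ptpn11E76K/+ library the order from high to low was Hspg2, Lamb2, Nid1, Lamc1, Nid2, Lamb1, Lama5, Lama4 and Lama2. In the Ptpn11+/+ library it was Hspg2, Nid1, Lamb2, Lamc1, Nid2, Lamb1, Lama2, Lama4 and Lama5, so the alpha chains stood last in both and their own order was turned round. The counting intervals of neighbours in these orders did not overlap. Hspg2 was at 148 CPM per kb in the Ptpn11E76K/+ library (147 to 150) and at 210 CPM per kb in the Ptpn11+/+ library (209 to 212). Lama5 was at 25.6 CPM per kb in the Ptpn11E76K/+ library (24.9 to 26.3) and at 0.812 CPM per kb in the Ptpn11+/+ library (0.707 to 0.929). Lama2 was at 1.74 CPM per kb (1.55 to 1.95) in the Ptpn11E76K/+ library and at 5.83 CPM per kb (5.52 to 6.15) in the Ptpn11+/+ library. The order depends on the length used: with coding length Nid1 stood above Lamb2 in the Ptpn11E76K/+ library and above Hspg2 in the Ptpn11+/+ library. With the union of exons Lama5 stood above Lamb1 in the Ptpn11E76K/+ library.

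**Figure D3:**
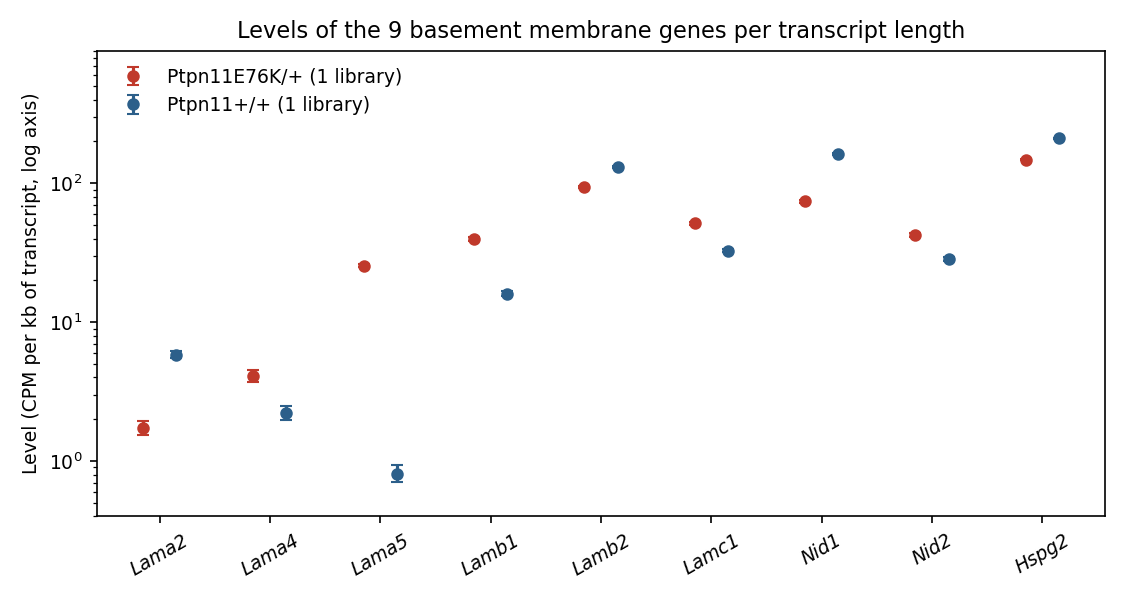
Level of each gene in CPM per kilobase of transcript on a log axis, in the Ptpn11E76K/+ library (left point of each pair) and the Ptpn11+/+ library (right point), with 95% counting intervals. Levels ran from 1.74 to 148 in the Ptpn11E76K/+ library and from 0.812 to 210 in the Ptpn11+/+ library.

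The chain that made up most of the alpha class differed between the libraries. Per kilobase, Lama5 made up 81.4% of the 3 alpha chains in the Ptpn11E76K/+ library and 9.17% in the Ptpn11+/+ library. Lama2 made up 5.54% in the Ptpn11E76K/+ library and 65.8% in the Ptpn11+/+ library, and Lama4 made up 13.0% in the Ptpn11E76K/+ library and 25.03% in the Ptpn11+/+ library. As raw counts with exact binomial intervals, the Lama5 share was 87.5% (86.6 to 88.4) in the Ptpn11E76K/+ library and 11.8% (10.3 to 13.3) in the Ptpn11+/+ library. The ratio of Lama5 to Lama2 counts was 17.4 in the Ptpn11E76K/+ library and 0.165 in the Ptpn11+/+ library, a 105-fold difference (87.1 to 128). A ratio of 2 genes within a library needs no library total, so no scaling of totals moves it.

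In the beta class Lamb2 was the larger part in both libraries, and Lamb1 made up 29.7% per kilobase in the Ptpn11E76K/+ library against 10.9% in the Ptpn11+/+ library. The ratio of Lamb1 to Lamb2 counts was 3.46 times as high in the Ptpn11E76K/+ library (3.26 to 3.67). Nid1 was the larger nidogen in both, and Nid2 made up 36.6% per kilobase in the Ptpn11E76K/+ library against 14.9% in the Ptpn11+/+ library. The ratio of Nid2 to Nid1 counts was 3.29 times as high in the Ptpn11E76K/+ library (3.11 to 3.47). Within each class the share of the larger chain of the Ptpn11+/+ library was thus lower in the Ptpn11E76K/+ library.

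**Figure D4:**
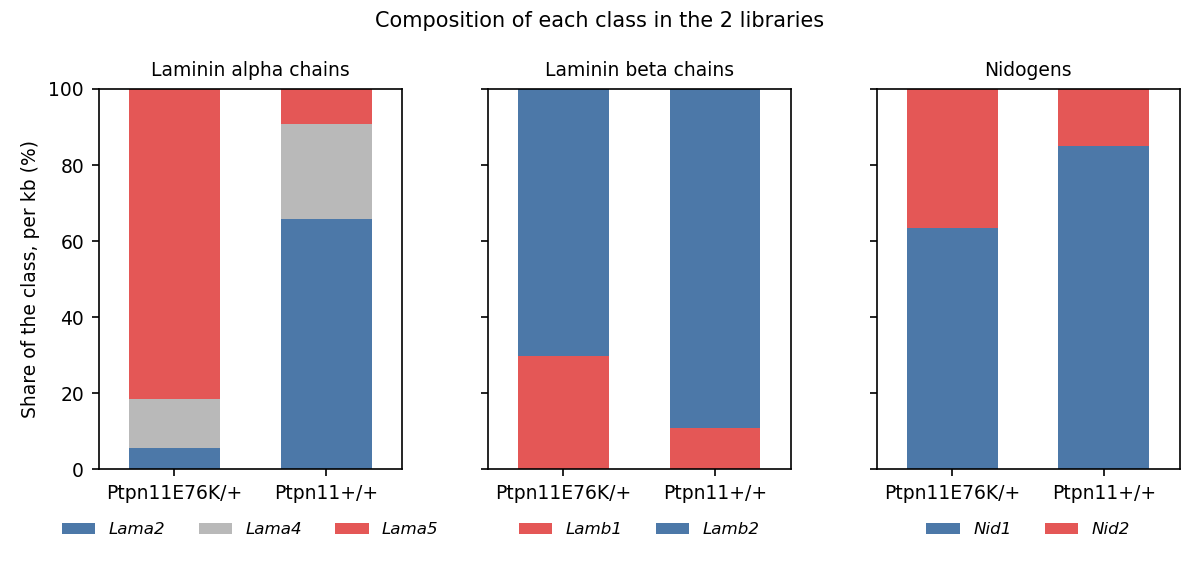
Share of each gene in its class, in percent of the summed CPM per kilobase, for the laminin alpha chains, the beta chains and the nidogens, with the Ptpn11E76K/+ library left of the Ptpn11+/+ library. Lama5 takes 81.4% of the alpha class in the Ptpn11E76K/+ library and 9.17% in the Ptpn11+/+ library.

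Summed over each class, the alpha chains were at 31.4 CPM per kb in the Ptpn11E76K/+ library and 8.86 CPM per kb in the Ptpn11+/+ library. The beta chains were at 134 CPM per kb in the Ptpn11E76K/+ library and 148 CPM per kb in the Ptpn11+/+ library, and Lamc1, the gamma chain, at 51.5 CPM per kb in the Ptpn11E76K/+ library and 32.7 CPM per kb in the Ptpn11+/+ library. Since a trimer takes 1 chain of each class, these sums can be set against gamma1. The alpha chains amounted to 0.610 of gamma1 in the Ptpn11E76K/+ library and 0.271 in the Ptpn11+/+ library, and the beta chains to 2.60 times gamma1 in the Ptpn11E76K/+ library and 4.52 times in the Ptpn11+/+ library. Nidogens were at 2.26 times gamma1 in the Ptpn11E76K/+ library and 5.81 times in the Ptpn11+/+ library. The size of these ratios to gamma1 depends on the length used, here the longest transcript. With coding length Lamc1 was at 81.4 CPM per kb in the Ptpn11E76K/+ library and 51.8 CPM per kb in the Ptpn11+/+ library. RNA levels do not give the amounts of protein or of assembled trimer. The 9 genes together took 0.410% of all counts in the Ptpn11E76K/+ library and 0.546% in the Ptpn11+/+ library.

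The promoters of the 4 called genes are shown because they moved in pairs, 2 higher and 2 lower. RefSeq promoter sequences (GRCm38.p6, 250 bases before to 50 after the start) were matched for 6 of the 9 genes: Lama2, Lama5, Lamb1, Lamb2, Nid1 and Hspg2. The windows are chr2:180225810-180226109 on the minus strand for Lama5, chr12:31265043-31265342 on the plus strand for Lamb1, chr10:27616893-27617192 on the minus strand for Lama2 and chr13:13437352-13437651 on the plus strand for Nid1. They are printed 5' to 3' with matches to the GC box GGGCGG, on either strand, in capitals.
Lama5: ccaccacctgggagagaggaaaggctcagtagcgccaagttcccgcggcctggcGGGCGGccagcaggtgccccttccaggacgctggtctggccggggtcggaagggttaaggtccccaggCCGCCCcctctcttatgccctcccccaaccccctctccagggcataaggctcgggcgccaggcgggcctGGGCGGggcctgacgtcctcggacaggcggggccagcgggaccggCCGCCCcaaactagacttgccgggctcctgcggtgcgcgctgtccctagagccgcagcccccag
Lamb1: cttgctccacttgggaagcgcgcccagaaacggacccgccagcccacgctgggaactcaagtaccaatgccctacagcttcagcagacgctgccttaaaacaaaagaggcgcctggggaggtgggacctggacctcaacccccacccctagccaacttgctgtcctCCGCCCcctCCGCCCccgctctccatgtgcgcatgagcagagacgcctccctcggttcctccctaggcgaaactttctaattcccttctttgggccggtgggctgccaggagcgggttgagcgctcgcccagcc
Lama2: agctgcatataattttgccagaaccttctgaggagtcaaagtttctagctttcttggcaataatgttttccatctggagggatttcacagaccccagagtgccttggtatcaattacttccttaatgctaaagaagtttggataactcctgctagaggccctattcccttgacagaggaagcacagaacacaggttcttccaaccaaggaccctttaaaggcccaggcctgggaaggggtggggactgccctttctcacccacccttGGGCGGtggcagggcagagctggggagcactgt
Nid1: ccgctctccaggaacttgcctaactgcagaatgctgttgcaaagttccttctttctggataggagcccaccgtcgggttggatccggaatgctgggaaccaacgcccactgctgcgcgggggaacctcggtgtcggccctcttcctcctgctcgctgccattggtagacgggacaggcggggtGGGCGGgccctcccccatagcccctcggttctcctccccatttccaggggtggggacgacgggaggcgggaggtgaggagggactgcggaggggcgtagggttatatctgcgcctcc

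The GC box, the letters bound by SP1-like factors, had 4 matches in the Lama5 window, 2 in Lamb1, 1 in Lama2 and 1 in Nid1, and 35.7% of the 32851 promoters in the table hold it. Of the matched genes that were not called, Hspg2 had 5 matches and Lamb2 had 0, so the most matches fell in a gene without a call. The AP-1 letters TGANTCA and the ETS letters CCGGAAG, which occur in 7.81% and 8.86% of promoters on either strand, had 0 matches in all 6 windows. So had the TATA box TATAAA (13.6% of promoters) and the E-box CACGTG (7.15%). The Lama5 window held 24 CpG sites, Nid1 20 and Lamb1 18, against 1 in Lama2 and a median of 7 over all promoters. Hspg2 held 27 CpG sites and Lamb2 held 4. The matches are letters in a window and say nothing of binding.

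Further laminin chain genes were read beside the 6 above. For this and each list below, the shares over all measured genes were 6.98% called higher and 8.29% called lower. Lama3, an alpha chain of epithelial laminins, had 55 counts in the Ptpn11E76K/+ library and 15 in the Ptpn11+/+ library. It was 4.88-fold higher in the Ptpn11E76K/+ library (2.72 to 9.30), and would not have reached 20 counts without the Ptpn11E76K/+ library. Lamb3, a beta chain of epithelial laminins, was not called, with 476 counts in the Ptpn11E76K/+ library and 927 in the Ptpn11+/+ library (ratio 0.683, 0.610 to 0.764). Lamc3 was called lower, 3.82-fold (2.45 to 6.19), and Lama1 had 2 counts in the Ptpn11E76K/+ library and 1 in the Ptpn11+/+ library. The added alpha chains were minor: over all 5 alpha chains Lama5 still made up 80.6% per kilobase in the Ptpn11E76K/+ library and 9.10% in the Ptpn11+/+ library. Of 3 measured netrins, which share laminin domains, Ntn4 was called lower (3.33-fold, 3.09 to 3.60), and the other 2 were not called. With total counts, or with totals computed without the most abundant genes, 2 of the 3 were called lower, Ntn1 being the second.

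Of 12 laminin receptor genes, 3 were called higher in the Ptpn11E76K/+ library and 0 lower, with a median log2 ratio of 0.35. Itga6, the alpha subunit of laminin-binding integrins, laminin-511 receptors among them, had 1508 counts in the Ptpn11E76K/+ library and 422 in the Ptpn11+/+ library, 4.75-fold higher (4.26 to 5.31). Itga7, the muscle laminin integrin subunit, had 369 counts in the Ptpn11E76K/+ library and 45 in the Ptpn11+/+ library, 10.9-fold higher (7.99 to 15.2). Rpsa, which encodes a ribosomal protein also known as a laminin receptor, was 2.16-fold higher (2.13 to 2.21). It was not called with total counts, with totals computed without the most abundant genes or with the length and GC trends removed, which left 2 receptors called higher. The partner subunit gene Itgb1 had 37341 counts in the Ptpn11E76K/+ library and 45137 in the Ptpn11+/+ library and was not called (ratio 1.10, 1.09 to 1.12). Bcam, a receptor specific for the alpha5 chain, had 371 counts in the Ptpn11E76K/+ library and 235 in the Ptpn11+/+ library (ratio 2.10, 1.78 to 2.48) and was not called, nor was Itga3, at 1.61 (1.56 to 1.66). Dag1, the dystroglycan gene whose product binds laminin alpha2, was not called at 1.79-fold lower (1.74 to 1.85). Per kilobase Itga3 was still above Itga6, by a ratio of Itga6 to Itga3 of 0.212 in the Ptpn11E76K/+ library and 0.0719 in the Ptpn11+/+ library. None of the 14 genes that glycosylate dystroglycan was called, with a median log2 ratio of -0.28, and 10 of the 14 ratios were below 1. Pomgnt2, which extends the sugar chain on dystroglycan, had 63 counts in the Ptpn11E76K/+ library and 221 in the Ptpn11+/+ library, 2.64-fold lower (1.99 to 3.55). It was called lower with total counts, upper-quartile factors, totals computed without the most abundant genes or the trends removed. Pomgnt1 had the highest level per kilobase in the Ptpn11E76K/+ library, at 22.2 CPM per kb against 18.5 in the Ptpn11+/+ library.

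Among basement membrane collagens, 1 of 6 measured genes was called lower and 0 higher. It was Col4a5, with 3175 counts in the Ptpn11E76K/+ library and 9977 in the Ptpn11+/+ library (2.36-fold lower, 2.27 to 2.46). The main collagen IV chains Col4a1 (ratio 1.93, 1.89 to 1.98) and Col4a2 (ratio 1.46, 1.42 to 1.505) were not called. With the length and GC trends removed, 2 collagen genes of this list were called higher. Of 15 other measured basement membrane components, 2 were called higher and 4 lower. Npnt, the nephronectin gene, had 1536 counts in the Ptpn11E76K/+ library and 36 in the Ptpn11+/+ library, 56.8-fold higher (40.8 to 81.3), and Fbln1, a fibulin gene, was 3.37-fold higher (2.76 to 4.14). Efemp1 (5.77-fold, 5.42 to 6.15), Tgfbi (5.13-fold, 4.61 to 5.72), Smoc2 (3.94-fold, 3.46 to 4.51) and Egfl6 (13.5-fold, 3.48 to 116) were called lower in the Ptpn11E76K/+ library. Egfl6 had 2 counts in the Ptpn11E76K/+ library and 36 in the Ptpn11+/+ library.

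Perlecan's heparan sulfate is built and trimmed by a shared set of enzymes, of which 20 were measured, 1 called higher and 2 lower. Sulf2, which removes sulfate groups from finished chains, had 656 counts in the Ptpn11E76K/+ library and 6633 in the Ptpn11+/+ library, 7.60-fold lower (7.01 to 8.25). Xylt1, which starts the chains, was 7.12-fold lower (5.26 to 9.83), and its paralogue Xylt2 was not called. Ugdh, which makes the sugar precursor, was 3.15-fold higher (3.02 to 3.28). Of 11 other measured heparan sulfate core protein genes, Gpc2 (5.88-fold, 4.29 to 8.24) and Gpc4 (3.41-fold, 3.25 to 3.59) were called lower and 0 higher.

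Of 16 measured proteases that can cut basement membranes, 2 were called higher and 3 lower. Mmp3, stromelysin-1, which cuts laminin and nidogen, was 2.82-fold higher in the Ptpn11E76K/+ library (2.52 to 3.16). Ctss, a protease gene that is also a macrophage marker, had 34 counts in the Ptpn11E76K/+ library and 0 in the Ptpn11+/+ library. With that 0 set to a floor of 3 counts it was 15.1-fold higher, a value without an interval. It reached the minimum through the Ptpn11E76K/+ library alone, and with a minimum of 100 counts 1 protease gene was called higher. Adamts1 (6.61-fold, 6.34 to 6.90), Adamts5 (2.31-fold, 2.22 to 2.40) and Tll1 (7.17-fold, 4.202 to 13.1) were called lower in the Ptpn11E76K/+ library. Of 14 genes listed as secretory chaperones of matrix proteins, Plod2 alone was called, 2.07-fold lower (2.002 to 2.13). Plod2 encodes a collagen lysyl hydroxylase, an enzyme rather than a chaperone. It was not called with DESeq2 size factors, with the length and GC trends removed, or with 99% intervals.

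**Figure D5:**
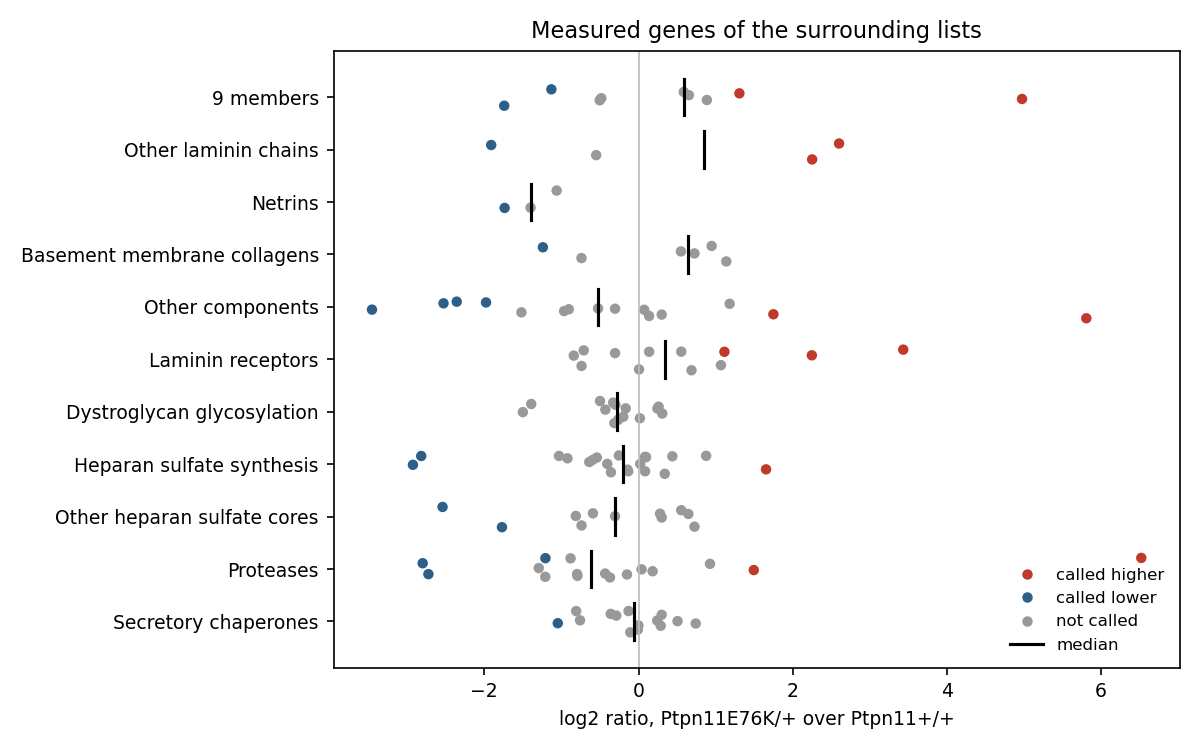
The log2 ratio of the Ptpn11E76K/+ over the Ptpn11+/+ library for each measured gene of the 9 and of 10 surrounding lists, with a prior count of 0.5 per library; black bars are list medians. Laminin receptors hold 3 genes called higher and 0 called lower, and heparan sulfate synthesis holds 1 called higher and 2 lower.

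Other cell types also make these proteins, so markers of those types were read in both libraries. Of 10 epithelial markers 0 were measured, with Epcam, Krt8 and Krt18 at 0 in both libraries. The 10 summed to 0.345 CPM in the Ptpn11E76K/+ library and 0.130 CPM in the Ptpn11+/+ library. The 12 endothelial markers summed to 4.54 CPM in the Ptpn11E76K/+ library and 1.95 CPM in the Ptpn11+/+ library, with Tie1 and Cldn5 at 0 in both and Plvap called higher. The 10 Schwann cell markers summed to 9.43 CPM in the Ptpn11E76K/+ library and 10.1 CPM in the Ptpn11+/+ library. Sox10, Cdh19 and Foxd3 were at 0 in both. Of 4 measured Schwann cell markers, 1 was called higher (Mbp) and 1 lower. The 10 skeletal muscle markers summed to 6.56 CPM in the Ptpn11E76K/+ library and 4.06 CPM in the Ptpn11+/+ library, and Pax7, Myf5 and Ckm were at 0 in both.

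Of 7 measured pericyte and smooth muscle markers, 3 were called higher (Tagln, Cnn1 and Mcam) and 2 lower (Rgs5 and Notch3), and the 12 listed summed to 2975 CPM in the Ptpn11E76K/+ library and 1493 CPM in the Ptpn11+/+ library. Macrophage and monocyte markers numbered 20, of which 12 were measured, 8 of them only through the Ptpn11E76K/+ library, and 9 were called higher. The markers summed to 62.9 CPM in the Ptpn11E76K/+ library and 14.9 CPM in the Ptpn11+/+ library. The part of any of these cell types, epithelial cells included, in the levels of Lama5 and the other genes was not tested.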

How the data were processed

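The authors deposited 1 table of raw read counts per Ensembl gene, which were not normalized. Per the submitters' processing notes, CASAVA, TopHat and edgeR were used and the build was mm9, with no versions or roles. Not given in these sources are the read counter, annotation release, strand setting and any pooling of animals; the series' design text speaks of 2 replicates, while the table holds 1 column per genotype.

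Symbols were matched for 34490 of 35275 identifiers. Of the listed genes, Ntn3 was not analysed here, and some listed genes are not reported here by name. Totals were scaled with TMM factors (edgeR 4.0.16 in R 4.3.3): 0.9654 for the Ptpn11E76K/+ library and 1.0358 for the Ptpn11+/+ library. Ratios carry exact Clopper-Pearson 95% intervals of the split of a gene's counts, levels exact Poisson intervals, and ratios of 2 genes exact intervals conditional on the margins (SciPy 1.17.1). A gene with at least 20 counts over both libraries was measured; medians use a prior count of 0.5. Lengths and GC content are of the longest GENCODE M21 transcript (GRCm38, another build than mm9). The only coordinates given are those of the promoter windows, on GRCm38.p6. No 50-base stretch was shared between members, and Nid2 shared 8.04% of its stretches with Rtraf. Nid1 shared 3.67% with Gm2399 and Gm48682, and Lama2 shared 1.14% with Gm48084. Gm2399 had 0 counts in the Ptpn11E76K/+ library and 14 in the Ptpn11+/+ library. Gm48682 and Gm48084 were not among the identifiers of the table. Recovery of known folds was tested on simulated data with counting noise only, which cannot cover the spread between animals.

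Members and lists were chosen with earlier results of these data known. Named were all members and, from each other list, the called genes, or the most abundant where none was called; further genes given with values (such as Itgb1, Bcam and Dag1) were chosen after their values were seen.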

Additional observations from a re-analysis of the deposited data

How the results depend on the processing

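No paired analysis was possible because each genotype has 1 library, and for the same reason no library could be left out. Under the 5 other scalings all 9 genes kept their direction. The 1.5-fold, point-ratio and 99% interval rules reuse the main ratios, so direction could not change under them. The 1.5-fold and point-ratio rules are looser, so the 2-fold calls held there by construction. Lama5 and Lamb1 stayed called higher and Lama2 stayed called lower under the 5 scalings and with 99% intervals. Nid1 stayed called lower under these except with the length and GC trends removed, which left 1 member called lower. The log2 ratio of Lama5 ranged from 4.85 to 5.25, that of Lama2 from -1.87 to -1.36 and that of Hspg2 from -0.63 to -0.19. The members' median log2 ratio was 0.49 with total counts and 0.46 without the most abundant genes, settings in which the median of all measured genes was -0.10 and -0.13. With intervals beyond 1.5-fold, 4 members were called higher. Of their 110 measured genes, the surrounding lists then held 17 called higher and 31 lower, against 10 and 15 with the 2-fold rule. Over all 13142 measured genes, 31.3% were called at 1.5-fold and 15.3% at 2-fold. With point ratios beyond 2-fold the surrounding lists held 13 called higher and 23 lower, against 1435 and 1922 of all 13142 measured genes.

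Shares depend on the length used. In the Ptpn11E76K/+ and Ptpn11+/+ libraries, the Lama5 share of alpha chains was 89.3% and 15.2% with the union of exons, and 87.5% and 11.8% with raw counts. The Lamb1 share of beta chains was 21.01% and 7.14% with the union of exons. The Nid2 share of nidogens was 38.3% and 15.9% with the union of exons, 29.1% and 11.1% with coding length, and 31.6% and 12.3% with raw counts. In each of these the direction between the libraries was that of the main values. This was fixed in advance, because the settings differ in the length used alone and each length is the same in both libraries. The settings show only how far the size of a share depends on the length. Depth limits few of the 9 genes, since the least counted had 741 counts in all.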
